A study of Rattus norvegicus with 8 samples.

Results

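Cadherins are calcium-dependent adhesion proteins, and in lumbar motoneurons of the rat several of them were lower at postnatal day 21 (P21) than at postnatal day 1 (P1). They are described here from every probe set of the array whose single annotated symbol is a numbered cadherin (Cdh), a numbered or clustered protocadherin (Pcdh) or a Celsr gene. The rule took 48 of the 31042 probe sets, for 35 genes. Of these, 35 probe sets for 26 genes were bright enough to be tested, and 14 fell, 1 rose and 20 did not pass the test. Of all 19155 probe sets tested, 17.4% fell and 20.8% rose. The falls took in 5 type II cadherin genes (Cdh7, Cdh8, Cdh10, Cdh11 and Cdh12), Cdh13, Celsr3, Pcdh19, Pcdh20 and Pcdha13, and the rise was of Cdh20.

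The study compared motoneurons of Wistar albino rats at P21, after myelination, with those at P1, during it, with 4 arrays at each age. Each array was made from RNA of a pool of 4 rats, for which 1500 to 2000 cresyl violet-stained motoneurons had been cut out of 12 µm sections of the lumbar cord with a laser. The pools came from 4 litters that were divided between the ages, and the labels name no genotype or treatment. P-values measure the spread between these pools. Around 50 ng of RNA was amplified in 2 rounds from the poly(A) end, so probe sets far from that end can read low, and the array is the Affymetrix RAE230 2.0.

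Classical cadherins span the membrane once and bind a like cadherin on the next cell, while their tails hold catenins that tie them to actin. Type II cadherins are expressed in combinations by motor pools, and in the chick they sort motoneurons into pools. Protocadherins lack the catenin-binding tail, and the clustered ones are expressed in varied sets by single neurons and mediate self-recognition of dendrites. The seven-pass cadherins of the Celsr group act in planar cell polarity and in the guidance of axon tracts.

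Motoneuron markers were present at both ages. Of 9 measured, 1 rose (Chat), 1 fell (Isl1) and 7 did not pass, and their intensity summed over the list lay between 53309 and 60081 at P21 and between 51645 and 55397 at P1. Markers of other cells moved as well. Those of oligodendrocytes rose in 10 of 12 cases (summed intensity 38745 to 41066 at P21, 9876 to 11982 at P1), and those of astrocytes rose in 8 of 11 and fell in 1 (30777 to 36023 at P21, 21684 to 24584 at P1). Microglial markers rose in 6 of 8 cases (5707 to 9804 at P21, 2725 to 4182 at P1) and Schwann cell markers in 3 of 5 (12150.1 to 16619 at P21, 7796 to 10628 at P1). Endothelial markers rose in 6 of 13 (8414 to 14507 at P21, 6417 to 9248 at P1), and those of fibroblasts and mural cells in 5 of 9 (14920.2 to 29582 at P21, 9605 to 12306 at P1). Spinal interneuron markers fell in 5 of 9 cases and rose in 2 (11682 to 13868 at P21, 16907 to 18193 at P1). Of the rises, 3 of oligodendrocytes (Mobp, Mog and Opalin) and 2 of microglia (Tyrobp and Cd74) were of genes kept through P21 alone, and 1 fall among interneuron markers (Tac1) was of a gene kept through P1 alone, so these had to differ. The counts are of genes that were tested, and the sums are over all listed genes on the array. Of all 10961 genes tested, 22.8% rose and 18.1% fell. None of the markers was at or below 0 on all 8 arrays, while Cx3cr1, Itgam, Gad2, Slc6a5, Lhx5, Kcnj8 and Anpep lay under the filter level on all of them. In pools of captured cells, fewer cells of a type and less RNA per cell cannot be told apart, and the part of these other cells in the results below was not tested.

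An intensity is the authors' linear value for a probe set on an array, and n is 4 arrays per age throughout. A change is the difference of mean log2(intensity + 16), P21 minus P1, written ± its standard error, and it understates the change of dim probe sets. A probe set was tested if at least 4 of the 8 arrays read it above their own 40th percentile, the filter level, which was 263 to 287 at P21 and 221 to 282 at P1. It passed if its adjusted p, from limma with Benjamini-Hochberg adjustment over all 19155 kept probe sets, was under 0.05, and every adjusted p of a probe set is from that fit. Brightness depends on the probes as well as on the RNA, so no probe set's level is set against another's.

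Across all kept probe sets, 38.3% passed, 20.8% higher and 17.4% lower at P21, so 54.4% of the calls were higher, or 38.6% with each array centred on its median. Of the 35 kept cadherin and protocadherin probe sets, 42.9% passed, 2.86% higher and 40% lower. The median change was -0.15 among them and 0.07 over all kept probe sets. In 14 of the 35 the 4 P21 intensities all lay below the 4 at P1, as in 17.7% of all kept probe sets, and in 1 they all lay above, as in 20.4%. By the fitted change, 6 of the 35 passed with a fall of at least 2-fold, against 4.61% of all kept probe sets, and 0 with such a rise, against 5.40%. The 6 include Cdh8, whose fall is only a bound because its P21 arrays were all under the filter level, and with such probe sets at their bounds the count was 5 of 35, against 3.85% of all kept probe sets. With 1 probe set per gene, the brightest, 11 of 26 genes were lower (42.3%) and 1 was higher (3.85%), against 18.1% and 22.8% of 10961 genes, and the 11 include Pcdh17, which did not pass among probe sets. By the fitted change 5 of the 26 genes fell at least 2-fold, against 4.39% of all genes, and 0 rose by as much, against 5.94%, and at the bounds 4 fell by as much, against 3.87%.

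**Figure D1:**
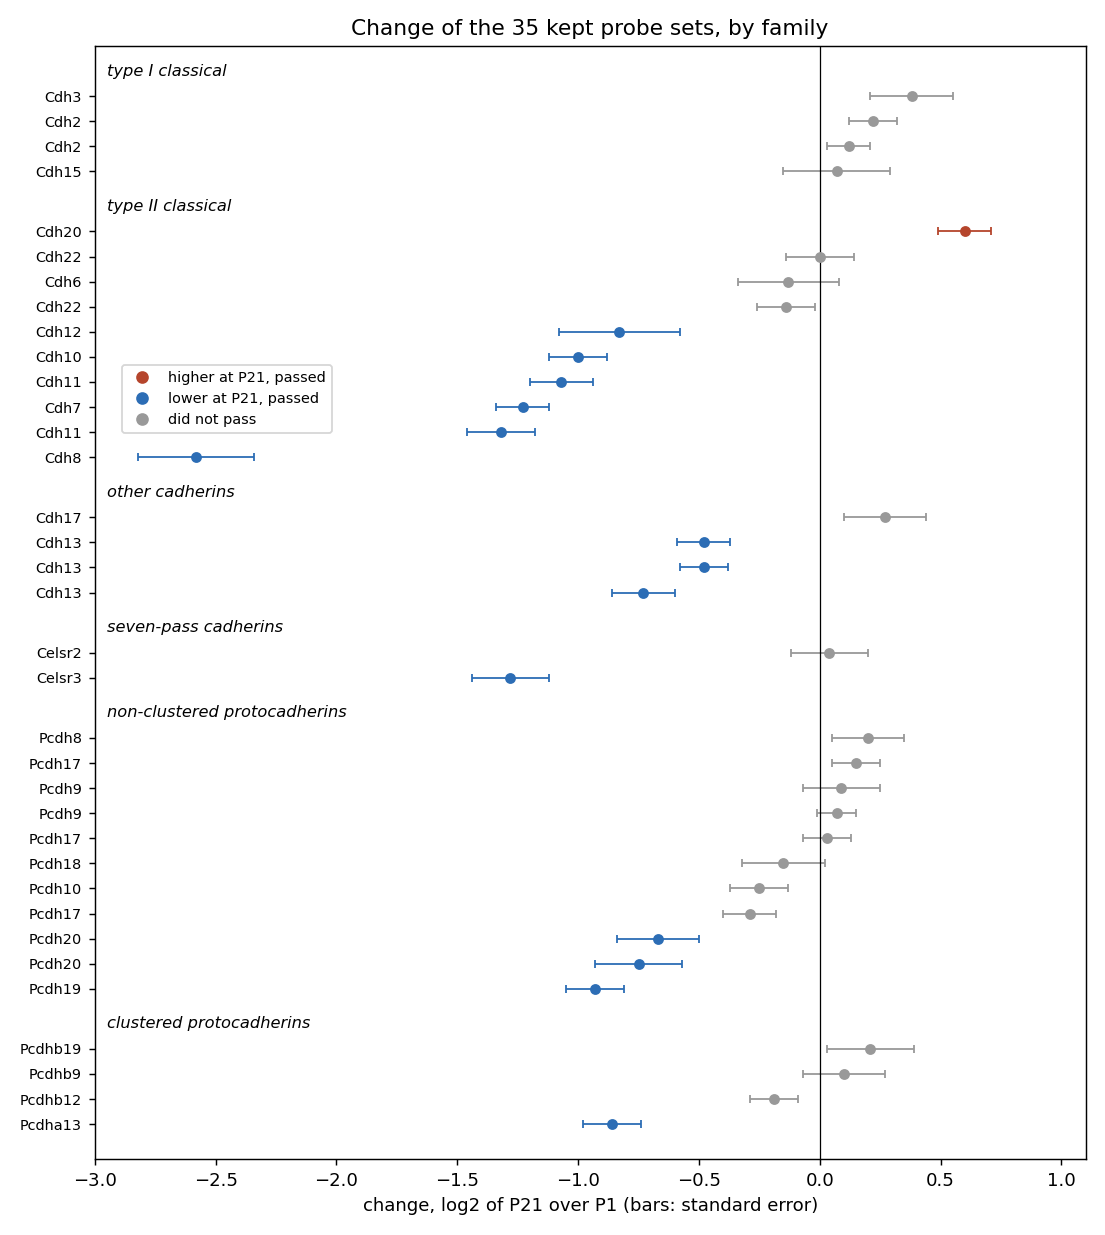
Change of each of the 35 kept probe sets (log2 of P21 over P1, horizontal axis, bars standard error, 4 arrays per age), grouped by family, with blue points lower and red points higher at P21 where the test was passed and grey points where it was not. The type II cadherins spread from -2.58 for Cdh8 to 0.60 for Cdh20, while no type I cadherin passed.

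Sequence before the start sites is shown for the 3 type II genes with the steepest falls among those with an entry in the RefSeq promoter table of GRCr8, and for Celsr3, so that genes that fell together can be compared. Each runs 5′ to 3′ over 300 bases, with 250 before the annotated start and 50 after it. Capitals mark the motifs searched on both strands, namely the TATA box (TATAAA), the CCAAT box, the GC box (GGGCGG), the homeodomain core (TAATTA) and the E-box bound by Snail-type repressors (CACCTG).
Cdh8 promoter (chr19:5500216-5500515, + strand): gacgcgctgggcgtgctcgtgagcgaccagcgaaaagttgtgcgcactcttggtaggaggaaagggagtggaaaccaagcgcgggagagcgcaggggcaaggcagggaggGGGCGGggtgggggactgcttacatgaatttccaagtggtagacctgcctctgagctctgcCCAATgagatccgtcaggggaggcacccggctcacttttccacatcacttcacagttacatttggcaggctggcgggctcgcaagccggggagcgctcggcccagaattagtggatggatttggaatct
Cdh7 promoter (chr13:27197332-27197631, + strand): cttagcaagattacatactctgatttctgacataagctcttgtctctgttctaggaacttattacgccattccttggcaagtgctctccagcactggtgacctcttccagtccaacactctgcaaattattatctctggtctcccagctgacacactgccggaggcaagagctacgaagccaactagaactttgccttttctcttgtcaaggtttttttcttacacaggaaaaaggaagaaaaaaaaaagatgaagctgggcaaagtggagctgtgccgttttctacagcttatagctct
Cdh10 promoter (chr2:70355439-70355738, + strand): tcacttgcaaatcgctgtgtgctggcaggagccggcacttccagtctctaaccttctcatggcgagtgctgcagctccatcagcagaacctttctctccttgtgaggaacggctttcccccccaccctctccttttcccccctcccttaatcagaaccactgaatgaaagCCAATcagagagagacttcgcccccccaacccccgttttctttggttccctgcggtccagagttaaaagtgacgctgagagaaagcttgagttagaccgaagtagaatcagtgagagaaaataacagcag
Celsr3 promoter (chr8:118408886-118409185, + strand): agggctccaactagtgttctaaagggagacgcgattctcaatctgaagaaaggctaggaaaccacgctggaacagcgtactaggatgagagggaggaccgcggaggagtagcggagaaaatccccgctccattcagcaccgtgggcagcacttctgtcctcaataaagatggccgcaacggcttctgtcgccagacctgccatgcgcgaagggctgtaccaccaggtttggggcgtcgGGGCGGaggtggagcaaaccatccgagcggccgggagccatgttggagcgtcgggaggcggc
Cdh8 held 1 GC box and 1 CCAAT, Cdh10 held 1 CCAAT, Celsr3 held 1 GC box, and Cdh7 held none of the 5 motifs in this window, and no matches overlapped in these 4 promoters. Among the 23 member genes with an entry, CCAAT was found in 12, the GC box in 7, the Snail-type E-box in 2, the TATA box in 1 and the homeodomain core in 0. The shares over all 27457 promoters were 37.7% for CCAAT, 34.9% for the GC box, 18.7% for the E-box, 14.3% for the TATA box and 5.3% for the homeodomain core. The GC content was 60.3% for Cdh8, 43.7% for Cdh7, 52.3% for Cdh10 and 60.3% for Celsr3, against a median of 52.3% over all promoters. These matches describe letters only.

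Of the 10 kept probe sets of type II cadherins, 6 fell, 1 rose and 3 did not pass. Of all kept probe sets, 17.4% fell and 20.8% rose. The median change of the type II probe sets was -0.91, or -0.80 with Cdh8 at its bound. Cdh8, a type II cadherin of subsets of neurons and their synaptic partners, read 109, 38.6, 78.6 and 58.0 on the P21 arrays, against 432, 608, 495 and 414 on the P1 arrays. All P21 values lay under the filter level, so the fall is a bound, at least 1.71-fold (fitted change -2.58 ± 0.24, adjusted p = 3.16e-05). It was the only 1 of the 35 that was kept through a single age, and such a probe set had to differ.

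Cdh7 read 506, 599, 565 and 668 at P21, against 1225, 1499, 1436 and 1403 at P1. Its groups lay well apart, and the fall was 2.35-fold (change -1.23 ± 0.11, adjusted p = 2.88e-05). Cdh10 read 1784, 1531, 2019 and 2219 at P21, against 3791, 3586, 3729.8 and 3932 at P1. The highest P21 array was below the lowest P1 array, and the fall was 2.00-fold (-1.0 ± 0.12, adjusted p = 1.70e-04).

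Cdh11, a type II cadherin of mesenchyme and of neurons, has 3 probe sets, of which 2 were kept. The brighter read 635, 664, 923 and 740.2 at P21, against 1646, 2239, 1755 and 1800.3 at P1, a fall of 2.49-fold (-1.32 ± 0.14, adjusted p = 8.71e-05). On the second, intensities were 844, 656, 556 and 644 at P21, against 1446, 1495, 1411 and 1329 at P1. That fall was 2.10-fold (-1.07 ± 0.13, adjusted p = 1.49e-04), so both gave the same call with no overlap of the ages. The last, at 254 ± 21.8 at P21 and 261 ± 76.5 at P1, was too dim to be kept. On these arrays 4 of the 5 fibroblast genes among the markers (Col1a1, Col1a2, Dcn and Lum, but not Col3a1) rose, against 22.8% of all genes. Fibroblasts also make Cdh11. Of the whole fibroblast and mural list, 5 of 9 rose. Col1a1 read 8626 on P21 replicate 4, against 2336 to 4154 on the other P21 arrays. Col1a2 read 8464 there, against 1868 to 3304. Spinal interneuron markers fell in 5 of 9 cases and rose in 2, against 18.1% and 22.8% of all genes. Among these falls, Tac1 was kept through P1 alone, so it had to differ. Gad1, also among them, had a change of 0.51 on its other kept probe set, which was not called. The part of any of these cells in the fall of Cdh11 was not tested.

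Cdh12 fell less evenly, with 832, 558, 1196 and 1358 at P21, against 1376, 1728, 1819 and 1792 at P1. P21 replicates 3 and 4 came close to P1 replicate 1, the lowest at P1, and the fall was 1.78-fold (-0.83 ± 0.25, adjusted p = 0.0257). That call was lost without P1 replicate 2, 3 or 4 (adjusted p = 0.0514, 0.0620 and 0.0631) or without P21 replicate 1 (0.0644), and with no filter it passed with an adjusted p that rounds to 0.05.

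Cdh20 moved the other way. It read 389.6, 489.7, 463 and 528 at P21, against 302, 275, 295 and 336 at P1, so that every P21 array lay above every P1 array. This cadherin, known in the chick as MN-cadherin for its expression in motoneurons, rose 1.52-fold (0.60 ± 0.11, adjusted p = 0.00245). Its level was not far above the filter, and it was not kept with the filter at the 60th percentile. Cdh20 is also made by oligodendrocytes in the mouse. Markers of those cells rose in 10 of 12 cases on the same arrays, against 22.8% of all genes. Of these 10, 3 were kept through P21 alone, and their part in the rise of Cdh20 was not tested.

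The other type II genes did not pass. Cdh6 read 2624, 1836, 1788 and 2729 at P21, against 3385, 1866, 2499 and 2123 at P1. The ages overlapped over most of their range, and the change was -0.13 ± 0.21 (adjusted p = 0.665). Cdh22 had changes of -0.14 ± 0.12 and 0.00 ± 0.14 on its 2 probe sets. In the rat genome GRCr8, Cdh10 and Cdh12 have 0 protein-coding genes between them and both fell, Cdh11 and Cdh8 are separated by 2 and both fell, and Cdh6 lies 5 genes from Cdh10.

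**Figure D2:**
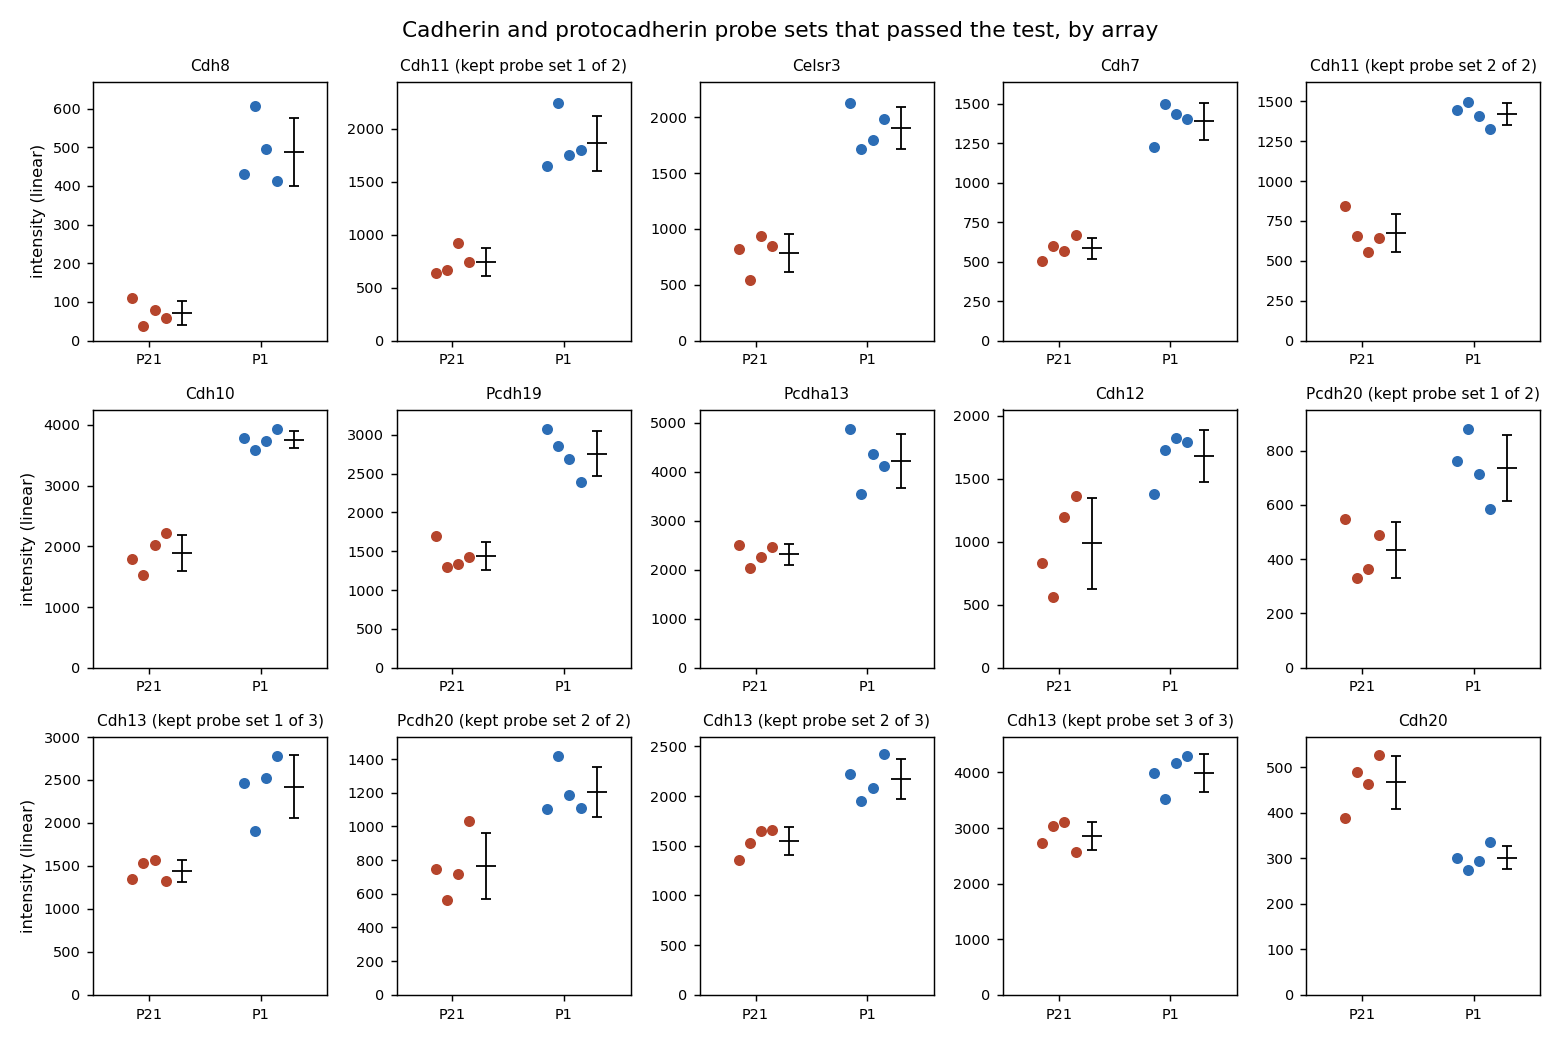
Intensity on each array (linear vertical axis from 0) for the 15 probe sets that passed the test, ordered by change, with P21 arrays in red on the left, P1 arrays in blue on the right and black marks for the mean ± SD of 4 arrays. In all 15 panels the ages do not overlap, and Cdh20 alone lies higher at P21.

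No type I cadherin passed among 4 kept probe sets, whose changes ran from 0.07 to 0.38, while 38.3% of all kept probe sets passed. Cdh2, N-cadherin, the main cadherin of neurons and their synapses, read 3436, 2765, 2955 and 2998 at P21, against 2917, 2635, 2761 and 2810.0 at P1 on its brightest probe set. The ages overlapped, and the change was 0.12 ± 0.09 (adjusted p = 0.337). Its second probe set had a change of 0.22 ± 0.10 (adjusted p = 0.104, or 0.0465 in the fit with the replicate block, in which arrays of the same number were paired, and 0.0439 with quantile normalization). The dimmest, with 99.8 ± 20.8 at P21 and 52.8 ± 19.4 at P1, was under the filter on all 8 arrays, and with no filter it passed as higher (adjusted p = 0.0303).

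Cdh3, P-cadherin, read 314, 327, 295 and 461 at P21, against 273, 304, 200.1 and 278 at P1. The change of 0.38 ± 0.17 did not pass (adjusted p = 0.101, or 0.0428 with the replicate block). Cdh15, M-cadherin, an adhesion protein of myoblasts and muscle satellite cells, had 712 ± 272 at P21 and 644 ± 40.6 at P1, with P21 replicate 4 at 1082 against 506 to 749.5 on the other P21 arrays.

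Cdh1, E-cadherin, joins epithelial cells and the layers of non-compact Schwann cell myelin. Its better probe set read 349, 235, 364 and 96.4 at P21, against 40.5, -3.71, 58.9 and 77.6 at P1. Every P21 array was above every P1 array, but only 2 of the 8 arrays exceeded the filter level, so it was not tested. With no filter it passed (adjusted p = 0.0206), but no fold is given, since all P1 arrays lay under that level. Schwann cell markers rose in 3 of 5 cases on the same arrays, against 22.8% of all genes, and a link to Cdh1 was not tested. A second probe set of Cdh1 read 24.3 ± 29.3 at P21 and 22.3 ± 10.9 at P1. Its genomic neighbour is Cdh3, with 0 protein-coding genes between them.

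Cdh13, T-cadherin, is held to the membrane by a lipid anchor in place of a tail, and it fell on all 3 of its probe sets. The brightest read 2726, 3028, 3105 and 2575 at P21, against 3994, 3521, 4171 and 4294 at P1, 1.40-fold lower (-0.48 ± 0.10, adjusted p = 0.00508). Another read 1344, 1538, 1572 and 1326 at P21, against 2466, 1909, 2527 and 2779.9 at P1, 1.66-fold lower (-0.73 ± 0.13, adjusted p = 0.00168). The remaining probe set fell 1.40-fold (-0.48 ± 0.11, adjusted p = 0.00554), so all 3 gave the same call with no overlap of the ages. Endothelium also makes Cdh13, and its markers rose in 6 of 13 cases with 0 falls, against 22.8% and 18.1% of all genes. The part of these cells in the fall of Cdh13 was not tested. Cdh17, a cadherin of intestine and liver, had a change of 0.27 ± 0.17 and did not pass. The probe sets of Cdh16, a kidney cadherin, and Cdh23, which forms the tip links of hair cells, were under the filter on all 8 arrays.

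Among the seven-pass cadherins Celsr3 fell and Celsr2 did not pass. Celsr3, which in the mouse guides long axon tracts and motor axons, read 816, 542, 939 and 849 at P21, against 2124, 1713, 1795 and 1985 at P1. The highest P21 value was well below the lowest at P1, and the fall was 2.43-fold (-1.28 ± 0.16, adjusted p = 2.54e-04). Celsr2 read 801, 529.7, 635 and 658 at P21, against 818, 586, 613 and 542 at P1, a change of 0.04 ± 0.16.

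Of 11 kept probe sets of non-clustered protocadherins, 3 fell (27.3%, against 17.4% of all kept probe sets) and 8 did not pass. Pcdh20 gave 2 of the 3 falls. Pcdh19, which acts with N-cadherin and is mutated in a form of human epilepsy, read 1698, 1291, 1334 and 1429 at P21, against 3076, 2859, 2693 and 2387 at P1. It fell 1.91-fold with no overlap (-0.93 ± 0.12, adjusted p = 2.48e-04). Pcdh20 read 748, 564, 719 and 1031 at P21, against 1103, 1417, 1184 and 1108 at P1 on the brighter of its 2 probe sets. P21 replicate 4 came close to the lowest P1 arrays, and the fall was 1.59-fold (-0.67 ± 0.17, adjusted p = 0.0127), and the second probe set was 1.69-fold lower (-0.75 ± 0.18, adjusted p = 0.00857). There the P21 arrays read 549.7, 329.9, 365 and 489, against 761, 879, 713 and 586 at P1.

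Pcdh17, a protocadherin of axons and presynaptic sites that recruits the actin-regulating WAVE complex, was close to the threshold on 1 of 3 probe sets. This one read 3772, 3149.9, 4043 and 3708 at P21, against 4728, 3943, 4668 and 4629 at P1. P21 replicate 3 overlapped with P1 replicate 2, and the change was -0.29 ± 0.11 (adjusted p = 0.0574, or 0.0188 with the replicate block). It is the probe set used for the gene count, in which the adjusted p over 10961 genes was 0.0482. The other 2 had changes of 0.03 ± 0.10 and 0.15 ± 0.10.

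On its brighter probe set Pcdh9, widely made in the nervous system, read 5213, 5016, 4848 and 5076 at P21, against 4956, 4576, 4869 and 4776 at P1, with overlap of the ages and a change of 0.07 ± 0.08 that did not pass. Its dimmer probe set had a change of 0.09 ± 0.16. Pcdh8, known to promote the uptake of N-cadherin from synapses, had a change of 0.20 ± 0.15, Pcdh10, which acts in axon growth in the mouse, -0.25 ± 0.12, and Pcdh18 -0.15 ± 0.17, and none passed. Pcdh15, the tip-link partner of Cdh23, was under the filter, at 225 ± 38.4 at P21 and 235 ± 43.3 at P1. Pcdh20 and Pcdh9 lie 1 protein-coding gene apart in GRCr8, and Pcdh17 and Pcdh8 are close by, so neighbours in this group differed in their calls.

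Clustered protocadherins had 10 probe sets for 9 genes, of which 4 were kept, 1 fell and 3 did not pass. The share that fell was 25.0%, against 17.4% of all kept probe sets. Pcdha13 read 2505, 2036, 2271 and 2468 at P21, against 4881, 3553, 4365 and 4115 at P1. It fell 1.81-fold with no overlap (-0.86 ± 0.12, adjusted p = 4.15e-04). In the alpha cluster and the gamma cluster each first exon is spliced to the same constant exons, and the sources used here do not say whether these probes lie in a first exon or in the constant part, so the signal cannot be assigned to Pcdha13 alone.

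The array also has 4 probe sets annotated to many genes of a cluster, which the rule leaves out because they name no single gene. The 2 annotated to 15 alpha genes fell 1.77-fold (3119, 2856, 3333 and 3056 at P21, against 5361, 5473, 5693 and 5378 at P1, change -0.82 ± 0.08, adjusted p = 6.63e-05) and 1.83-fold (-0.87 ± 0.12, adjusted p = 4.07e-04). One annotated to 13 gamma genes read 3056, 2651, 2846 and 2852 at P21, against 4022, 3962, 3787 and 4042 at P1, a fall of 1.39-fold (-0.47 ± 0.08, adjusted p = 0.00177). The last, annotated to 14 gamma genes, was under the filter, at 166 ± 20.5 at P21 and 166 ± 26.5 at P1.

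Genes of the beta cluster are single coding units that resemble one another, and probes could bind more than 1 of them. Pcdhb12 (-0.19 ± 0.10), Pcdhb9 (0.10 ± 0.17) and Pcdhb19 (0.21 ± 0.18) did not pass. Pcdhb12 read 408, 456, 438 and 474 at P21, against 536, 543, 429 and 537 at P1, with P1 replicate 3 apart from the other P1 arrays. Pcdhb6, Pcdhb17, Pcdhb21, Pcdhb22 and Pcdha12 were under the filter on all 8 arrays.

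**Figure D3:**
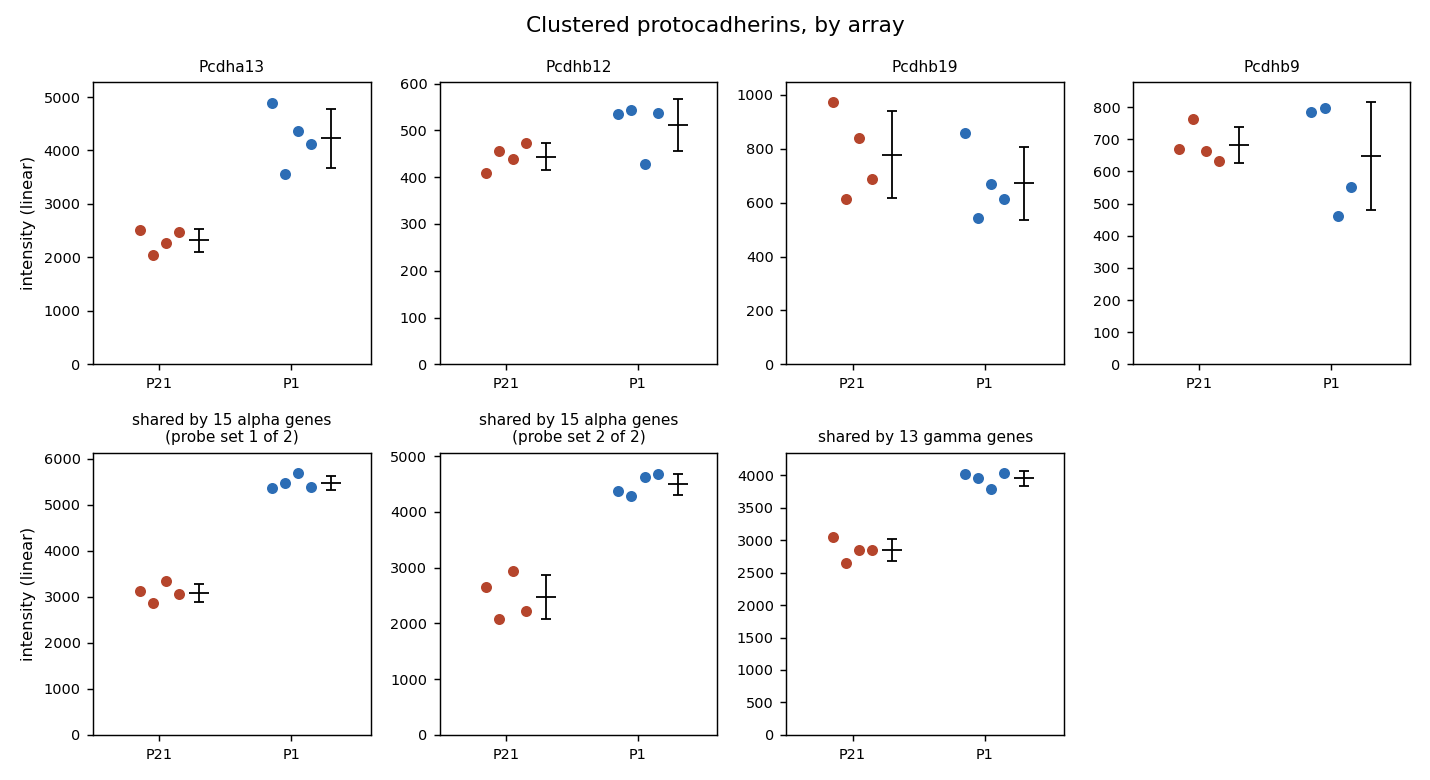
Intensity on each array (linear vertical axis from 0) for the 4 kept probe sets of single clustered protocadherin genes and the 3 kept probe sets annotated to several cluster genes, with P21 arrays in red on the left, P1 arrays in blue on the right and black marks for the mean ± SD of 4 arrays. The ages are apart for Pcdha13 and the 3 shared probe sets and overlap for Pcdhb12, Pcdhb9 and Pcdhb19.

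Of the 13 probe sets not kept, none exceeded 364 at P21 or 354 at P1, and 9 genes had no kept probe set (Cdh1, Cdh16, Cdh23, Pcdh15, Pcdha12, Pcdhb6, Pcdhb17, Pcdhb21 and Pcdhb22). In the 7 genes with over 1 kept probe set, all kept probe sets of a gene gave the same call. The 20 kept probe sets that did not pass had changes from -0.29 to 0.38, with standard errors of 0.08 to 0.22.

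Genes that act with cadherins, and cadherin superfamily genes outside the rule, were counted in 6 lists, with 1 probe set per gene. Of 84 measured, 41 passed, 15 higher and 26 lower, against 22.8% and 18.1% of all genes, whose median change was 0.05. The superfamily list gave 5 of the 26 falls and 1 of the 15 rises. Adjusted p-values in this and the next paragraphs are from limma over the 10961 genes.

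Catenins and their junction partners were split, with 7 of 21 higher and 8 lower, against 22.8% and 18.1% of all genes. Their median change was -0.03. Magi1, a junction scaffold, rose to 2284 ± 42.6 at P21, against 919.6 ± 159 at P1 (1.31 ± 0.12, adjusted p = 2.55e-05), while on another probe set of this gene the change was 0.00 and was not called. Afdn, afadin of nectin junctions, rose by 0.69 ± 0.10. Falls were led by Ptpn1, a phosphatase that binds N-cadherin (-0.88 ± 0.13), and Pkp2, a desmosomal plakophilin (-0.68 ± 0.10). Chosen after their values were seen, the catenins themselves differed: Ctnnb1 (beta-catenin, -0.05 ± 0.07) and Ctnna1 (0.07 ± 0.11) did not pass, the neuronal Ctnna2 (-0.35 ± 0.10) and Ctnnd2 (-0.51 ± 0.07) fell, and Ctnnd1 (p120, 0.31 ± 0.11) rose.

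Partners of Celsr in planar polarity fell in 5 of 13 cases and rose in 1 (median -0.09), against 18.1% and 22.8% of all genes. Vangl2, a membrane protein of the polarity pathway, had 512 ± 50.2 at P21 and 1549.7 ± 311 at P1 (-1.55 ± 0.16, adjusted p = 5.56e-05). Its second kept probe set, at -2.0, was also called. Wnt7a fell by 0.94 on the log2 scale (second kept probe set -0.26, not called), Ankrd6 rose (0.41 ± 0.09, with its other kept probe sets at 0.28, not called, and 0.90, called), and Fzd3, the receptor that works with Celsr3, did not pass (-0.16 ± 0.12).

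Cadherin superfamily genes outside the rule fell in 5 of 9 cases and rose in 1 (median -0.50, or -0.47 with Cdhr1 at its bound). The shares of all genes were 18.1% and 22.8%. Cdhr1 was kept through P1 alone, so it had to differ. Cdhr1 read 50.9 ± 29.7 at P21 and 391 ± 63.3 at P1, at least 1.39-fold lower, since every P21 array was under the filter level. Fat4, a giant cadherin of tissue polarity, had 412 ± 38.0 at P21 and 1348 ± 214 at P1 (-1.66 ± 0.13, adjusted p = 1.05e-05). Fat1 (-1.14 ± 0.12) and Dchs1 (-0.85 ± 0.17), of the same polarity system, and Ret (-0.50 ± 0.09), the receptor of the motoneuron survival factor GDNF, were also among the falls and were chosen after their values were seen. Dchs1 had a change of 0.00 on its second kept probe set, which was not called. Clstn3, a calsyntenin of synapses, rose (0.30 ± 0.10, adjusted p = 0.0355).

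Among genes through which protocadherins signal to actin, 3 of 15 rose and 3 fell (median -0.02), against 22.8% and 18.1% of all genes. Cyfip2 did not pass (0.00), but its other kept probe set was called higher (0.47). Wasf3 (0.89 ± 0.19) and Cyfip1 (0.40 ± 0.10) of the WAVE complex rose, and Marcks (-0.65 ± 0.09) and the kinase Fyn (-0.36 ± 0.08) fell. The other kept probe sets of Marcks (-1.39, -0.55, -0.67 and -1.82) and of Fyn (-0.64) were also called. The neuronal Wasf1, chosen after its value was seen, fell (-0.35 ± 0.11) where Wasf3 rose. Genes of cohesin, CTCF and chromatin that act on the choice of clustered promoters fell in 4 of 16 cases and rose in 1 (median -0.04). These counts depend on the probe set used. Stag2 (0.08) and Pds5a (0.21) did not pass, but another kept probe set of each was called higher (0.62 and 0.56). Wiz (-0.85 ± 0.12) and Wdr5 (-0.76 ± 0.13, with its second kept probe set at 0.10 and not called) led the falls. Wapl, which releases cohesin, rose (0.97 ± 0.11, with its other kept probe sets at 0.50 and 1.64, both called), and Ctcf did not pass (0.06 ± 0.13).

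Proteases that shed or process cadherins rose in 2 of 10 cases and fell in 1 (median 0.22), against 22.8% and 18.1% of all genes. Mmp3 had 688 ± 267 at P21 and 173 ± 39.1 at P1 (1.84 ± 0.27, adjusted p = 4.81e-04). Its P1 arrays read 157, 135, 226 and 175, and only replicate 3 exceeded its filter level (221), so the change rests on dim P1 values. Psen2 of gamma-secretase rose (0.57 ± 0.15), and its partner Aph1a fell (-0.41 ± 0.11). Adam10, the main sheddase of N-cadherin, was under the filter level on all 8 arrays.

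**Figure D4:**
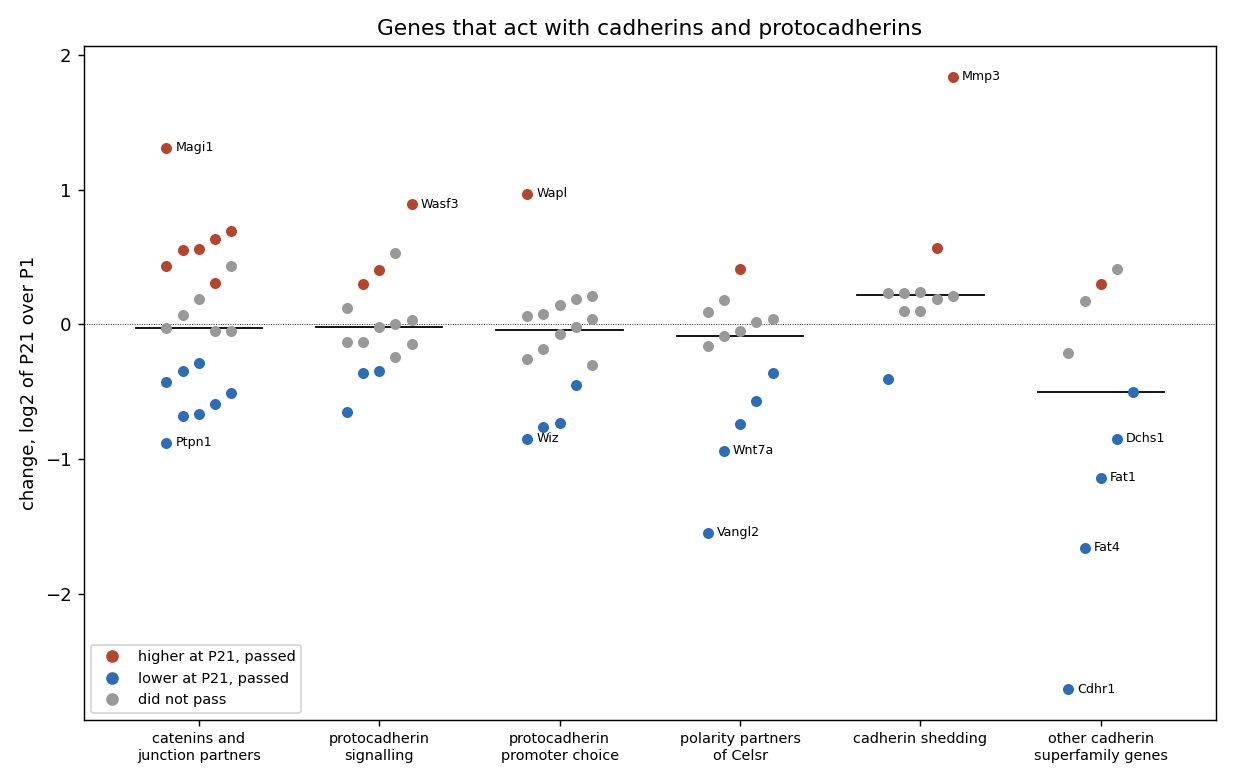
Change of each measured gene (log2 of P21 over P1, vertical axis) in the 6 lists of genes that act with cadherins or belong to the cadherin superfamily. Points are red where higher and blue where lower at P21 by the test, and grey where not passed. Black lines are list medians. Medians lie between -0.50 for the other cadherin superfamily genes and 0.22 for the shedding proteases.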

How the data were processed

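The authors deposited 1 linear intensity per probe set and array, with 66 to 250 values below 0 at P21 and 67 to 242 at P1. Probe summary, background correction and scaling are not given in the sources used here. Array medians were 399.6 to 416 at P21 and 323 to 408 at P1, and arrays correlated at 0.958 to 0.986 within an age. For arrays, depth is not defined, and their number limits the precision.

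Negative intensities were replaced by 0, and lmFit and eBayes of limma 3.58.1 (R 4.3.3) fitted log2(intensity + 16) on age alone, after a filter at the 40th percentile on at least 4 arrays (3 with an array left out), with Benjamini-Hochberg adjustment. The fit was tested on simulated data. Where all arrays of 1 age lay under the filter level, a fold is a bound, taken against that level. Alternatives were quantile normalization, median centring, pseudocounts of 4 and 64, no filter, the 60th percentile, the replicate block, the mean of a gene's probe sets and each array left out. Every member is named, and those that passed and changed at least 2-fold are given on all arrays. From each list, the 2 largest changes in each direction are named. Further values were chosen after they were seen, and members and lists with earlier results of these data known.

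Every call is from the unpaired fit. Deviations from the mean of an age correlated at 0.5145, 0.3210, 0.5579 and 0.1500 between arrays of the same number, and at up to 0.3658 between arrays of different numbers. Litters were divided between ages, though no label equates a number with a litter, so pairing was used in the replicate block alternative only. Symbols are those of the platform annotation. Promoters are from RefSeq, GRCr8, and 23 of 35 genes matched.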

Additional observations from a re-analysis of the deposited data

Results flagged for a closer look

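In 3 of the 70 sets of 4 arrays examined (35 probe sets at 2 ages), 1 array stood apart from the other 3 by Dixon's criterion on the log2 scale, which chance reaches in about 1 of 20. Pcdhb12 read 429 on P1 replicate 3, against 536 to 543 on the other P1 arrays. The probe set of Pcdh17 nearest to the threshold read 3943 on P1 replicate 2, against 4629 to 4728 on the others, and it passed without that array (adjusted p = 0.0319). Another probe set of Pcdh17 read 3746 on P1 replicate 1, against 3035 to 3100.3.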

How the results depend on the processing

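The 15 probe sets that passed kept their direction and their call under every scaling, pseudocount, filter, block and left-out array with which they were tested, except that Cdh12 lost its call without P1 replicate 2, 3 or 4 or P21 replicate 1 (changes -1.01 to -0.59 over the arrays left out). The count of falls was 13 to 15 with an array left out, 17 with quantile normalization or centring and 15 with the replicate block. The count of rises was 2 with quantile normalization, 3 with no filter, 0 with the filter at the 60th percentile, which removes Cdh20, 3 with the replicate block and 1 with any array left out. By gene it was 2, 0 and 2 with no filter, the 60th percentile and the block, and 1 to 2 with an array left out. The filter at the 60th percentile also removes Cdh8. The count of falls was still 14 there, with a gained call for Pcdh17 (-0.29, adjusted p = 0.0406). Arrays numbered 1 and 2 alone, a choice made after the data were seen, gave 4430 probe sets that passed, against 7329 with all arrays. Among the members these held 1 rise and 13 falls. With numbers 3 and 4 alone, 6599 passed, with 2 rises and 12 falls among the members. In both, the filter asked for at least 2 of the 4 arrays. The median change over all probe sets was 0.07, or 0.01 with quantile normalization and -0.07 with centring, and the share of calls that were higher was 54.4%, 48.0% and 38.6%. Of the 15, 2 lost their call with numbers 1 and 2 (Cdh13 at adjusted p = 0.0596 and 0.109) and 2 with numbers 3 and 4 (Pcdh20 at 0.0678 and 0.167). Pcdh10 gained a call as a fall with numbers 1 and 2 (-0.54, adjusted p = 0.0330), against 0.03 with 3 and 4. Cdh17 gained a call as a rise with numbers 3 and 4 (0.60, adjusted p = 0.0174), against -0.07 with 1 and 2. Pcdhb12, Pcdh10 and Pcdh17 passed as falls under quantile normalization (-0.32, -0.37, -0.24) and centring (-0.33, -0.39, -0.43).

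Only members that did not pass changed sign. With quantile normalization these were Celsr2 (-0.08), Cdh15 (-0.05), Cdh22 (-0.01), Pcdhb9 (-0.01) and Pcdh9 (-0.05). With centring they were Cdh2 (-0.01), Celsr2 (-0.10), Pcdh9 (-0.07 and -0.05), Cdh15 (-0.07), Pcdh17 (-0.11), Cdh22 (-0.14) and Pcdhb9 (-0.03). With an array left out the ranges were -0.25 to 0.04 for Cdh6, -0.06 to 0.16 for Celsr2, -0.15 to 0.21 for Cdh15, -0.01 to 0.09 for Pcdh17, -0.07 to 0.12 for Cdh22, -0.04 to 0.21 for Pcdhb9 and -0.07 to 0.18 for Pcdh9. The cause was not tested.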
